A study of Rattus norvegicus with 80 samples.

Results

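Mammary fibroblasts of the IF rat line were compared with mammary fibroblasts of wildtype rats by RNA sequencing. The 6 libraries, 3 IF and 3 wildtype, were chosen by their labels for line and cell type out of 80 in the series. The wildtype libraries have the genotype wildtype in the labels, and the IF fibroblasts come from 1 of 3 rat lines with mutations in Nf1. The other 2 lines are called PS and IFPS, the labels spell none of these names out, and they give no treatment, age or number of mutated copies. Fibroblasts were grown on plates and lysed close to confluency, although the series calls the normal cell types flow sorted. PS and IFPS fibroblasts, with 3 libraries each, entered the same fit, and mammary epithelial cells (MECs) and mature adipocytes of IF and wildtype rats served as further libraries of the same 2 lines. Nothing says that the 3 libraries of a group came from separate animals or cultures, so p-values measure only the spread between these libraries, which may be technical.

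Fibroblasts are the stromal cells that make and remodel the collagen matrix of the mammary gland, and they lie next to its epithelium and its fat. Nf1 encodes neurofibromin, a GTPase-activating protein that turns Ras off. When neurofibromin is lost, Ras stays loaded with GTP for longer and signals more through the ERK kinase cascade, which controls proliferation and differentiation in many cell types, fibroblasts included. The series is concerned with collagen and fat cell formation in the gland ahead of tumors, and this comparison addresses how normal stromal cells of 1 mutated line differ from wildtype.

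The table counts reads for 32883 Ensembl rat gene identifiers and does not pair them with names. A reference table of 47357 rat genes was searched for them and 0 identifiers matched, so genes are given by identifier, 2 that rose and 2 that fell, and the others by counts and ranges. For the same reason the level of Nf1, the check of the fibroblast label against its markers and the lists of matrix, Ras, adipogenic and other genes were not analysed here, and no promoter sequence is printed. The libraries held 24359974 to 27373203 counts in wildtype and 26105453 to 29240102 in IF. At least 1 count was seen for 17187 to 17501 identifiers per library.

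The 3 wildtype libraries differed from each other more than the 3 IF libraries did. The median absolute log2 difference between a pair of wildtype libraries was 0.162 to 0.226, against 0.124 to 0.166 within IF, and 610 to 1084 genes were at least 2-fold apart within wildtype against 414 to 641 within IF. Between an IF and a wildtype library the median difference was 0.153 to 0.293. IF replicate 1 and wildtype replicate 2 were closer to each other (0.153, Spearman correlation over genes 0.992) than any pair of wildtype libraries, and wildtype replicates 1 and 3 had a correlation of 0.985. Wildtype replicate 3 and IFPS replicate 2 differed by a median of only 0.113, less than any pair within the wildtype, IF or IFPS group. Their correlation was 0.9954, with 365 genes at least 2-fold apart. On these 2 measures IFPS replicates 1 and 3 were closer, at 0.9957 and 309 genes. The lowest chi-square per degree of freedom of any fibroblast pair within a group was 10.7, so every library counted as 1 replicate.

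Principal components were computed on log2 CPM (CPM is the usual read count scaled to a common library size, here with edgeR's TMM factors) of the 12 fibroblast libraries, and the first held 41.9% of the variance. PS libraries lay at -39.2 to -27.2, IF at -28.7 to -14.4, wildtype at -4.14, 9.84 and 38.0, and IFPS at 32.6 to 42.4. Wildtype replicate 3 thus lay among the IFPS libraries, and wildtype replicate 1 stood apart on the second component at -40.3.

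**Figure D1:**
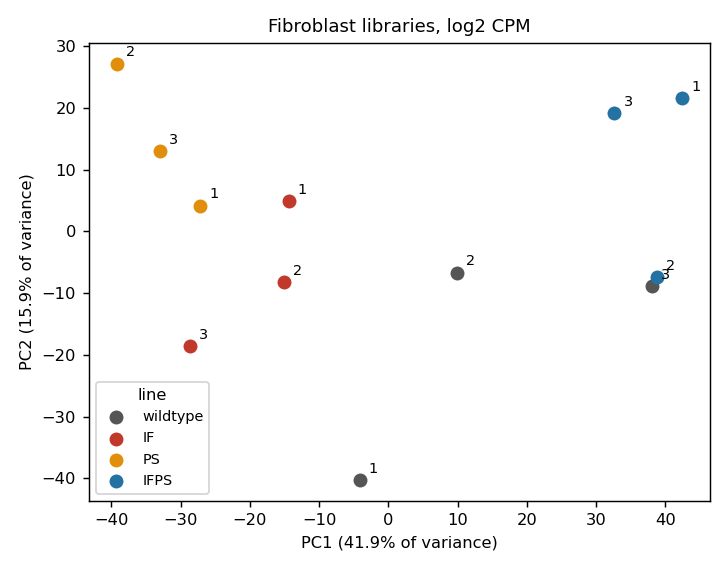
Principal components of log2 CPM in the 12 fibroblast libraries, with PC1 on the x axis and PC2 on the y axis in arbitrary units; points are libraries, colours are lines and digits are replicate numbers. The 3 IF libraries sit at -28.7 to -14.4 on PC1 and the wildtype libraries spread from -4.14 to 38.0, with replicate 3 beside the IFPS libraries.

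Between IF and wildtype fibroblasts, 1063 of the 13879 genes tested passed at an adjusted p under 0.05, which is 7.66% of the genes. In IF, 468 genes were higher (3.37%) and 595 lower (4.29%). The changes were mostly small. The median absolute log2 fold change of the 1063 genes was 0.51, with quartiles of 0.33 and 0.89, against 0.16 over all genes tested. At least 2-fold changes numbered 89 higher and 104 lower, and at least 4-fold changes 23 higher and 17 lower. At an unadjusted p under 0.05 there were 3651 genes. The p-values came from the quasi-likelihood test of edgeR, adjusted by the method of Benjamini and Hochberg. In that fit all 4 fibroblast groups share 1 estimate of the spread. The median SD of log2 CPM within a group was 0.161 in wildtype and 0.129 in IF, but 0.121 in IFPS and 0.1 in PS. The shared estimate may thus understate the spread of the wildtype libraries.

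The count depended on which libraries entered. With only the 6 IF and wildtype libraries in the fit, 89 genes passed. Leaving out wildtype replicate 3 gave 141 genes, and leaving out IF replicate 1, 2 or 3 gave 484, 97 and 224. Without wildtype replicate 1 the count was 1525. In each of the 6 fits that left out 1 library, all 1063 genes kept the sign of their log2 fold change. The choice of called genes favours this. For 1053 of them the IF and wildtype values did not overlap, so leaving out 1 library could hardly change the sign. The kept signs were thus largely fixed in advance and do not measure how steady the direction was. Wildtype replicate 3 was the wildtype library farthest from the IF mean for 69.5% of the called genes and for 49.9% of all genes.

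**Figure D2:**
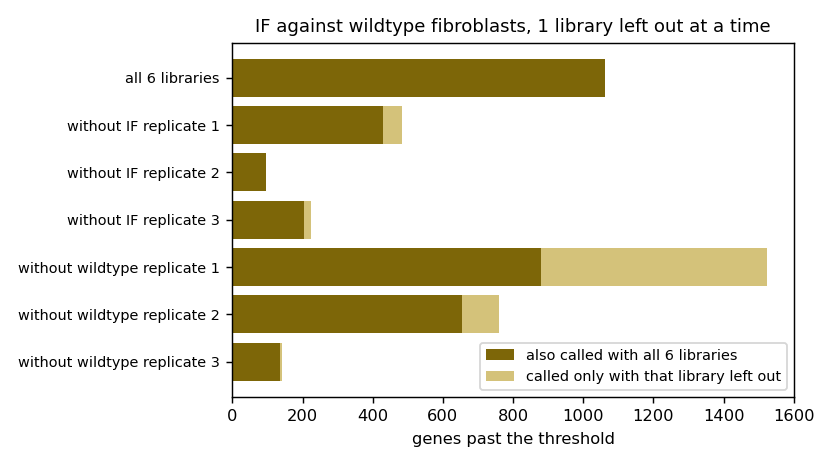
Number of genes past the threshold between IF and wildtype fibroblasts (x axis) with all 6 libraries and with each library left out (y axis); dark bars are genes also called with all 6 libraries. The count falls from 1063 to 97 without IF replicate 2 and to 141 without wildtype replicate 3, and rises to 1525 without wildtype replicate 1.

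A set of 73 genes passed with all 6 libraries and in each of the 6 fits that left 1 out, 29 higher and 44 lower in IF. Their median absolute log2 fold change was 0.85 and the smallest 0.28, and 10 of them changed at least 4-fold. The 3 IF and 3 wildtype values did not overlap for any of the 73, nor for 1053 of the 1063 genes, whereas 27.3% of all genes tested showed no overlap, 13.6% with IF above and 13.7% with IF below wildtype. The test selects such genes, so these counts describe the calls and do not add to them.

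Calls were found at every level of expression. The genes were split by mean log2 CPM into low, middle and high classes of 4626 or 4627 genes with medians of 1.62, 17.9 and 78.8 CPM, of which 5.06%, 8.24% and 9.68% passed. In the low class 122 genes were higher and 112 lower, in the middle class 156 and 225, and in the high class 190 and 258. The median absolute log2 fold change of the calls was 1.04 in the low and 0.355 in the high class. Of 15 tested genes with at most 3 counts in each wildtype library 1 was called higher, and of 6 with at most 3 counts in each IF library 1 was called lower.

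**Figure D3:**
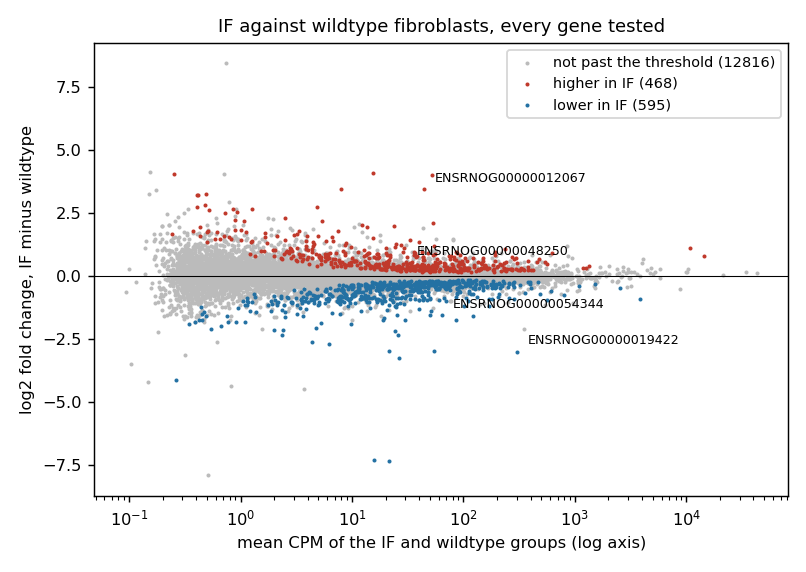
Log2 fold change of IF minus wildtype fibroblasts (y axis) against the mean CPM of the 2 groups (x axis, log axis) for 13879 genes; red points are the 468 genes higher and blue points the 595 genes lower in IF. The coloured points have a median distance of 0.51 from 0, and the named identifiers are labelled.

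The 4 identifiers below were the 2 higher and 2 lower genes with the smallest p in this comparison. All 4 were among the 73 genes. They kept their call in each of the 11 other analyses made of this comparison, which their choice by smallest p favours. ENSRNOG00000019422 fell the most of them. Its level was 632, 476 and 491 CPM in wildtype replicates 1 to 3 and 68.3, 60.6 and 69.7 CPM in IF. The groups were far apart, at 533 ± 86 CPM in wildtype against 66.2 ± 4.89 CPM for IF (n = 3 each, SD). IF fibroblasts thus had a log2 fold change of -3.01 ± 0.12 (SE), an 8.05-fold decrease, with an adjusted p of 4.82e-07 by edgeR. PS fibroblasts had 109 ± 3.32 CPM and IFPS fibroblasts 181 ± 19.8, so that the order IF, PS, IFPS, wildtype held without overlap of any neighbours. Tested directly, IF was lower than PS by -0.71 ± 0.11 (adjusted p = 0.00888) and lower than IFPS by -1.45 ± 0.12 (adjusted p = 0.00016).

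ENSRNOG00000054344 also fell in IF fibroblasts. Wildtype replicates 1 to 3 had 104, 87.4 and 97.5 CPM, and IF had 31.7, 34.1 and 32.2 CPM. The means of 96.4 ± 8.52 and 32.7 ± 1.25 CPM (SD, n = 3 each) gave a log2 fold change of -1.56 ± 0.08 (edgeR, adjusted p = 2.38e-06). PS fibroblasts had 34 ± 2.14 CPM, overlapping IF, with a direct difference of IF minus PS of -0.06 ± 0.08 (adjusted p = 0.706). IFPS fibroblasts had 67.8 ± 3.96 CPM, between IF and wildtype, and IF was lower than IFPS by -1.05 ± 0.08 (adjusted p = 0.000154).

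ENSRNOG00000012067 rose the most of the 4. Wildtype replicates had 6.61, 5.63 and 9.90 CPM (151 to 279 counts), and IF replicates 74.95, 99.64 and 66.56 CPM (1875 to 2883 counts). The log2 fold change was 3.44 ± 0.23, a 10.9-fold increase (edgeR, adjusted p = 3.11e-05). PS had 75.2 ± 4.73 and IFPS 11.8 ± 2.66 CPM (SD, n = 3 each). IF minus PS was 0.10 ± 0.20 (adjusted p = 0.832), and IF minus IFPS was 2.76 ± 0.22 (adjusted p = 0.00016).

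ENSRNOG00000048250 rose by less but with the tightest groups of the 4. Its level was 25.3, 24.7 and 24.6 CPM in wildtype and 37.2, 36.8 and 35.5 CPM in IF. The log2 fold change was 0.55 ± 0.05, a 1.47-fold increase (edgeR, adjusted p = 0.000374). PS had 33.5, 35.4 and 36.1 CPM in order of size, the highest of them within the IF range, and IFPS had 24.5 to 25.6 CPM, spanning the wildtype range. IF minus PS was 0.06 ± 0.05 (adjusted p = 0.518), and IF minus IFPS 0.54 ± 0.05 (adjusted p = 0.000473).

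**Figure D4:**
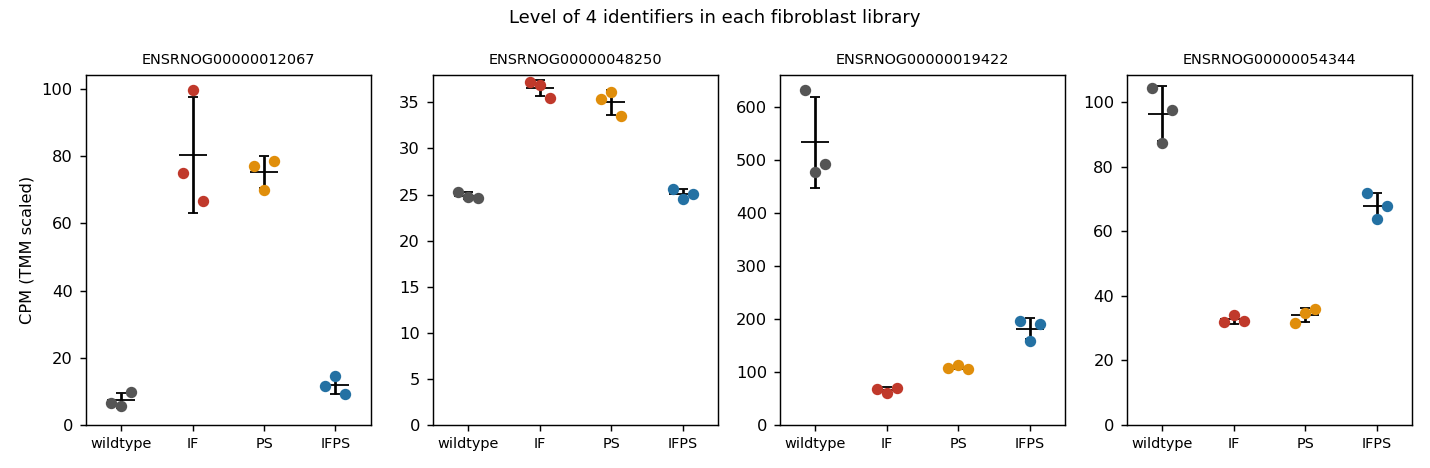
Level in CPM (y axis, TMM scaled, from 0) of 4 identifiers in the fibroblast libraries of each line (x axis); points are libraries, horizontal marks means and bars SD (n = 3). In each panel the IF points are clear of the wildtype points, and PS lies close to IF in 3 panels and above it for ENSRNOG00000019422. IFPS lies at or near the wildtype level for ENSRNOG00000048250 and ENSRNOG00000012067, and between PS and wildtype for the others. For ENSRNOG00000019422 its mean of 181 CPM is nearer to that of IF (66.2 CPM) than to that of wildtype (533 CPM).

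The largest fitted changes were less even than these 4. Of the identifiers past the threshold, the largest increase (log2 fold change 4.11 ± 0.68) had 390, 1219 and 835 counts in IF and 22, 78 and 33 in wildtype. It had 27824 to 52401 counts in adipocytes and 1566 to 2329 in MECs of all lines, each above every fibroblast library. The second largest increase (4.05 ± 1.10) rested on few counts, 1, 19 and 21 in IF replicates 1 to 3 and 1, 1 and 0 in wildtype. The 2 largest decreases had fitted log2 fold changes of -7.37 ± 1.85 and -7.32 ± 1.74. The first had 3022, 12 and 75 counts in wildtype replicates 1 to 3 and 4 to 12 in IF, and the second 1300, 1091 and 4 in wildtype and 1 to 11 in IF. The values of both thus rested on 1 or 2 wildtype libraries. They were picked for their size after their values were seen.

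As a share of all counts, the 468 higher genes held 6.70% to 7.06% in IF and 4.05% to 4.84% in wildtype libraries, and the 595 lower genes 3.16% to 3.41% in IF and 4.58% to 5.49% in wildtype. These shares were chosen by the test. Libraries outside the comparison gave 5.08% to 5.65% in PS and 4.19% to 4.32% in IFPS for the higher genes, and 3.34% to 3.65% in PS and 5.24% to 5.49% in IFPS for the lower genes. PS lay between wildtype and IF for the higher genes and overlapped IF for the lower genes. IFPS lay within the wildtype range in both. The 10 most abundant identifiers of a library held 17.1% to 18.4% of IF counts and 14.9% to 16.7% of wildtype counts, without overlap. Over the 6 libraries these were 12 identifiers, of which 2 passed the test.

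PS and IFPS libraries also allow a comparison that uses none of the 6, although it shares the estimate of the spread with them. Of the 468 genes higher in IF, 311 (66.5%) were higher in PS than in IFPS and 9 lower, where 40.5% of all genes tested passed, 20.1% as higher and 20.4% as lower. Of the 595 lower genes, 422 (70.9%) were lower in PS than in IFPS and 22 higher. The median log2 difference of PS minus IFPS was 0.42 for the higher and -0.45 for the lower genes, beside -0.0036 over all genes. The share with the same sign was 88.3% for all calls and 80.6% for the calls made without wildtype replicate 3, the library that lay among the IFPS libraries on the first component. PS libraries were deeper, at 34578130 to 37293141 counts against 25532664 to 31988867 in IFPS, and the part of depth in these counts was not tested. Against wildtype, PS fibroblasts differed in 21.7% of genes and IFPS fibroblasts in 0.0648% (9 genes, all lower in IFPS), with the same wildtype libraries. These 2 counts were not repeated with a library left out. Between an IFPS and a wildtype library, 365 to 1643 genes were at least 2-fold apart. The few calls thus do not make IFPS and wildtype fibroblasts alike. Directly, IF fibroblasts differed from PS in 663 genes (4.78%; 343 or 2.47% higher, 320 or 2.31% lower) and from IFPS in 4352 genes (31.4%; 2177 or 15.7% higher, 2175 or 15.7% lower), with the same IF libraries as against wildtype. Without IF replicate 2 or 3 the count against PS was 194 and 243, and without IF replicate 3 the count against IFPS was 2780.

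Gene classes by cell type were set from PS and IFPS libraries of fibroblasts, MECs and adipocytes, so that the 6 libraries had no part in them. Fibroblast-enriched genes had a mean level at least 4-fold above both other cell types. All 227 were tested, and 19 were higher and 15 lower in IF. That is 8.37% and 6.61% of the class beside 3.37% and 4.29% of all genes. The median log2 fold change of the class was 0.13 beside 0.00364 over all genes. It was 0.187 for the MEC-enriched and 0.0551 for the adipocyte-enriched genes below, so a positive median was not particular to this class. The median absolute value of the fibroblast-enriched class was 0.30 beside 0.16. Of 6928 tested genes at a like level in all 3 cell types (within 2-fold), 169 were higher and 250 lower, 2.44% and 3.61%, with a median absolute change of 0.115. Of 620 MEC-enriched genes 427 passed the filter on low counts, 10 higher and 9 lower (2.34% and 2.11%), with a median absolute change of 0.37. Of 809 adipocyte-enriched genes 598 passed it, 27 higher and 25 lower (4.52% and 4.18%), with a median absolute change of 0.34. Without wildtype replicate 3, 7 fibroblast-enriched genes passed, 4 of them higher, which was 3.08% of the class beside 0.999% of all genes.

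The level of other cells' genes was low in all 6 libraries, which the choice of these genes favours. The MEC and adipocyte sets below were chosen as low in PS and IFPS fibroblasts. Low shares were thus largely fixed in advance and are no check of purity. CPM of the fibroblasts and of the other cells was scaled separately, so the shares are rough. The 49 genes at least 32-fold enriched in MECs summed to 42.0 to 44.7 CPM in IF and 54.8 to 75.9 CPM in wildtype fibroblasts, which is 0.564% to 1.02% of their level in MECs, and 4 to 10 of them had no count in a given library. All 3 IF libraries were below all 3 wildtype libraries (exact two-sided permutation p = 0.1, the smallest that 3 against 3 allow). The 134 genes so enriched in adipocytes summed to 307, 416 and 761 CPM in IF and 990, 423 and 411 CPM in wildtype, at most 1.11% of their adipocyte level, and the groups overlapped (exact permutation p = 0.6). The 6 genes so enriched in fibroblasts summed to 7610, 6760 and 8780 CPM in IF and 4300, 6110 and 4330 CPM in wildtype, all 3 IF libraries above all 3 wildtype libraries. The part of these levels in the results was not tested. In cell populations, fewer cells of a type and less RNA per cell cannot be told apart.

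The same 2 lines were compared in MECs, in libraries that the fibroblast comparison does not use. IF and wildtype MECs differed in 120 of 14688 genes (0.817%; 0.477% higher, 0.34% lower). Every MEC library moved this count: it was 37, 39 and 38 without IF replicate 1, 2 or 3, and 26, 645 and 10 without wildtype replicate 1, 2 or 3. Of the fibroblast calls, 33 passed in MECs in the same direction (11 higher, 22 lower) and 1 in the opposite direction. The 34 genes were 3.20% of the fibroblast calls and 28.3% of the MEC calls. The median log2 fold change in MECs was 0.07 for the 455 higher fibroblast genes tested there, 65.7% of them with the same sign, and -0.135 for the 593 lower genes, 76.9% with the same sign. Over all genes tested in both cell types, 49.4% had a positive log2 fold change in MECs. Of the 73 genes that kept their call, 52 had the same sign in MECs and 6 passed there in that direction, where 0.817% of all genes passed. In adipocytes, where all 73 were tested, 27 had the same sign. Of all fibroblast calls tested there, 69.1% of the higher and 49.8% of the lower genes had the same sign. Over all genes tested in both fibroblasts and adipocytes, 49.6% had a positive log2 fold change in adipocytes. Fibroblast and MEC libraries of the same title number deviated together from their group means (correlations over genes of 0.136 to 0.307), so the calls in the 2 cell types may not be independent.

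Whether the IF effect differed between fibroblasts and MECs was tested in 1 fit of 24 libraries. The difference passed for 220 of 15224 genes (1.45%), 80 (0.525%) with a higher and 140 (0.92%) with a lower effect in fibroblasts. With the title number as a replicate block the count was 308. Without IF replicate 2 it was 89, without IF replicate 3 it was 137 and without wildtype replicate 3 it was 98. ENSRNOG00000019422 fell in both cell types, but by less in MECs, from 172 to 190 CPM in wildtype to 116 to 135 CPM in IF (log2 fold change -0.55 ± 0.11, adjusted p = 0.0494). The difference of the effects was -2.47 ± 0.17 (adjusted p = 7.16e-08). ENSRNOG00000054344 had 81.4 to 102 CPM in wildtype and 91.6 to 94.1 CPM in IF MECs, a log2 difference of -0.04 ± 0.09 (adjusted p = 0.861), and the effects differed by -1.53 ± 0.12 (adjusted p = 4.41e-07). ENSRNOG00000012067 rose in MECs from 12.4 to 16.5 CPM to 132 to 162 CPM, and its effects differed by 0.11 ± 0.25 (adjusted p = 0.899). ENSRNOG00000048250 had 24.4 to 27.2 CPM in wildtype and 28.8 to 31.4 CPM in IF MECs, where all 3 IF libraries were higher but the log2 difference of 0.23 ± 0.09 did not pass (adjusted p = 0.227). The difference of its effects was 0.31 ± 0.11 (adjusted p = 0.161).

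In adipocytes the IF line differed from wildtype in 48.2% of genes (26.5% higher, 21.7% lower), a background against which any list shows many calls. Of the 446 higher fibroblast genes tested in adipocytes, 44.6% passed as higher and 13.5% as lower, with a median log2 fold change of 0.31. Of the 580 lower fibroblast genes, 26.6% passed as lower and 26.9% as higher, with a median of 0.0028 beside -0.0056 over all genes. The share of lower fibroblast genes that were lower in adipocytes was thus near the background, and that of higher genes was above it. The effects differed between fibroblasts and adipocytes in 5501 of 15124 genes (36.4%). Of the 34 genes called in both fibroblasts and MECs, 23 also passed in adipocytes, where 48.2% of all genes passed. Of these 23, only 10 changed in the same direction throughout, 6 higher and 4 lower.

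The named identifiers showed both patterns. ENSRNOG00000019422 had 415 to 700 CPM in IF and 318 to 404 CPM in wildtype adipocytes (log2 fold change 0.57 ± 0.19, adjusted p = 0.0292), a rise where fibroblasts showed a fall, and the effects differed by -3.54 ± 0.23 (adjusted p = 8.58e-09). ENSRNOG00000054344 likewise rose in IF adipocytes, from 93.3 to 112 CPM to 118 to 209 CPM (0.75 ± 0.19, adjusted p = 0.00822), with a difference of the effects of -2.28 ± 0.21 (adjusted p = 5.66e-07). ENSRNOG00000012067 rose further in adipocytes than in fibroblasts, from 0.562 to 0.907 CPM (19 to 26 counts) to 74.9 to 116 CPM, by 6.94 ± 0.26, and the effects differed by -3.47 ± 0.35 (adjusted p = 1.84e-06). ENSRNOG00000048250 had 22.4 to 25.3 CPM in IF and 19.6 to 22.2 CPM in wildtype adipocytes (0.24 ± 0.13, adjusted p = 0.155).

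**Figure D5:**
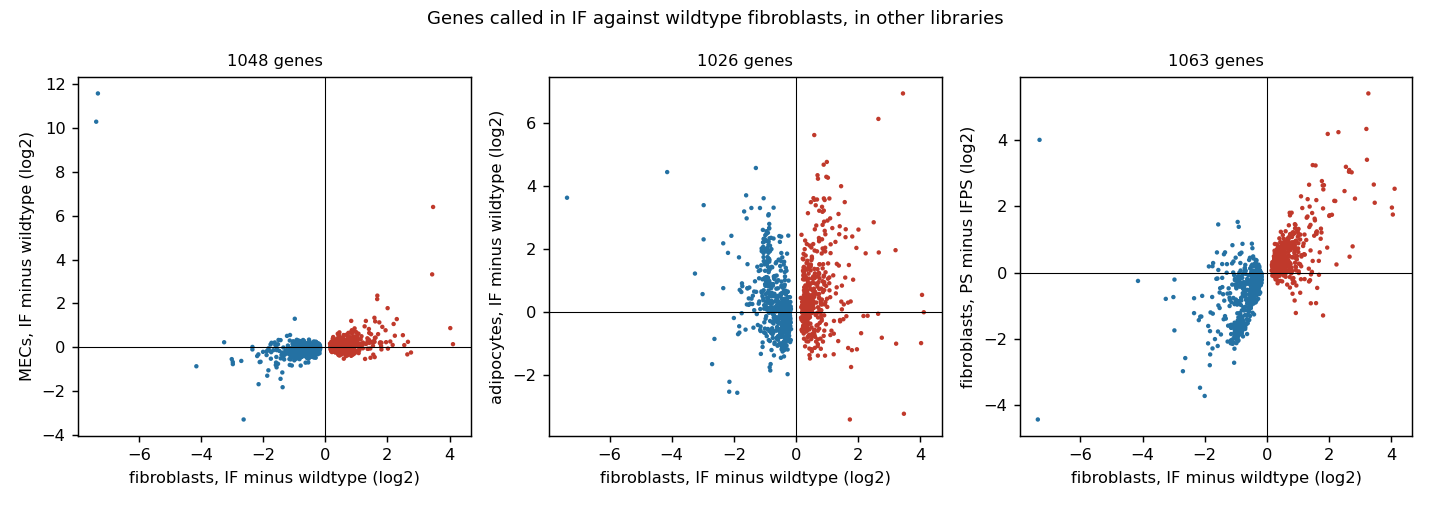
Genes called between IF and wildtype fibroblasts, with their log2 fold change in that comparison on each x axis (red higher, blue lower) and, on the y axes, their log2 fold change of IF minus wildtype in MECs, the same in adipocytes and of PS minus IFPS in fibroblasts, each for the genes tested there. Most points of the right panel share the sign of the x axis, whereas the blue points of the adipocyte panel lie on both sides of 0.

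Whole mammary pads, which hold all cell types of the gland and its fat, were compared within title numbers 1 to 12, the set of numbers that holds all IF pads, a comparison added after the data were seen. IF pads differed from wildtype pads in 2 of 16097 genes (0.0124%), both higher in pads and in fibroblasts. DESeq2 called 79 genes in pads, and 1035 had an unadjusted p under 0.05. ENSRNOG00000012067 was 1 of them, with 195, 230 and 308 CPM in the 3 IF pads against 12.1 to 17.7 CPM in wildtype replicates 1 to 3 (log2 fold change 3.98 ± 0.21, adjusted p = 4.05e-05). Wildtype pads 4 to 6, of title numbers 13 to 15, had 222 to 282 CPM, so wildtype pads as a whole overlapped IF. In IF tumors it had 181 to 258 CPM. In the other lines it ran from 18.4 to 660 CPM in PS pads, 5.8 to 556 CPM in PS tumors and 3.08 to 271 CPM in IFPS tumors, while IFPS pads had 13.6 to 19.9 CPM. For the fibroblast calls as a whole the pads gave other values. The median log2 fold change was -0.0027 for the 460 higher genes tested in pads, of which 49.6% were higher in IF pads. It was 0.07 for the 594 lower genes, of which 35% were lower in IF pads. Over all genes tested in both, the median was 0.000924 and 50.2% were higher in IF pads. ENSRNOG00000019422 had 72.0 to 162 CPM in IF pads and 70.1 to 117 CPM in wildtype pads 1 to 3 (0.33 ± 0.44, adjusted p = 0.859).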

How the data were processed

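Poly(A) RNA libraries were read in 50-base pairs, per the labels' protocols. The submitters' processing notes name Trim Galore, STAR 2.5.2b and the genome build Rnor_6.0. The authors deposited raw counts per Ensembl identifier, and the counting tool, annotation and strand setting are not given in the sources used here, so overlapping genes and near-identical copies may share reads.

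Counts were tested with edgeR 4.0.16 in R 4.3.3 (TMM scaling, filterByExpr, quasi-likelihood test, Benjamini-Hochberg adjustment over all genes tested, threshold 0.05), all 12 fibroblast libraries in 1 fit. MECs, adipocytes and pads were fitted separately. The tests of whether the IF effect differed between cell types used 1 fit of both. CPM values of fibroblasts, MECs and adipocytes were TMM scaled within a cell type and are not comparable across cell types. Those of pads and tumors were scaled together, separately from the fit of the pads. The cell type classes used a common scaling of the PS and IFPS libraries of the cell types. A prior count of 2 was added for log2 CPM. The fits were tested on simulated data.

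Cell type classes needed a mean of at least 1 CPM, a pseudocount of 0.5 CPM and a 4-fold excess over both other cell types (32-fold for the strict sets) in PS and IFPS libraries. The identifiers named were the 2 higher and 2 lower with the smallest p, the rule for unmatched identifiers. No list or marker set of gene symbols could be applied, so they were not analysed here. The comparison and lists were chosen with earlier results of these data known.

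Fibroblast and MEC libraries of the same title number deviated together: 12 of 12 correlations of deviations from the group means exceeded 0.1. All 12 were highest for the own number when compared only with the other numbers of the same line. The numbers were therefore taken as pairing these 2 cell types. The labels do not say what a number marks. IF and wildtype share no number. The alternatives were RLE scaling, no filter on low counts, DESeq2 1.42.0, thinning to equal depth, fitting only IF and wildtype, a replicate block and leaving out each library in turn. Those for PS against IFPS, pads and the adipocyte difference were added after seeing the data.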

Additional observations from a re-analysis of the deposited data

Results flagged for a closer look

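The effect of the IF line differed between fibroblasts and adipocytes in 5501 genes and between fibroblasts and MECs in 220 genes, each by a test of the difference itself. For ENSRNOG00000019422 the log2 fold change in fibroblasts minus that in adipocytes was -3.545, and minus that in MECs -2.471. For ENSRNOG00000054344 these differences were -2.279 and -1.531. For ENSRNOG00000012067 the difference from adipocytes was -3.474, with a rise in both cell types. The level of ENSRNOG00000048250 in wildtype pad replicate 4 was 48.21 CPM, far above the other wildtype pads at 31.0 to 36.44 CPM. Chance alone marks about 1 in 20 groups in this way, and 8 groups were examined.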

How the results depend on the processing

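The number of genes between IF and wildtype fibroblasts was 1805 with DESeq2 and 89 with only these 2 groups in the fit, and 97 to 1525 when 1 library was left out. For IF against PS fibroblasts DESeq2 gave 1313 genes and leaving out 1 IF library 194 to 483. For IF against IFPS fibroblasts leaving out 1 IF library gave 2780 to 3703. For MECs DESeq2 gave 650 and leaving out 1 library 10 to 645. For pads DESeq2 gave 79. For the difference of effects between fibroblasts and MECs DESeq2 gave 542, leaving out 1 fibroblast library 89 to 262, and the replicate block on the title number 308. The causes were not tested. A fit with fewer libraries has fewer degrees of freedom and another estimate of the spread, and the part of either was not tested. The block changed no call of the 4 named identifiers. Fibroblasts and adipocytes share title numbers, but only 6 of 12 correlations exceeded 0.1, so the numbers were not taken as pairing them; the block gave 5272 genes instead of 5501. RLE scaling gave 1073, no filter 845 and equal depth 971 genes for the first count.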
